A study of Rattus norvegicus with 15 samples.

Results

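Glycolysis and lactate handling in the rat retina was followed through 10 genes: the hexokinases Hk1 and Hk2, the phosphofructokinase subunit Pfkl, the regulatory enzyme Pfkfb3, the phosphoglycerate kinase Pgk1, the lactate dehydrogenase subunits Ldha and Ldhb, the glucose carrier Slc2a1, the lactate carrier Slc16a1 and the pyruvate dehydrogenase kinase Pdk1. All probe sets whose array annotation gives exactly one of these symbols were taken, which gave 20 of the 31099 probe sets on the array, for 10 of the 14218 genes that a probe set names alone. Of these, 17 were tested, and the other 3 are array controls for Hk1. The samples were 15 retinal RNAs from adult male Long Evans rats, a pigmented outbred strain, with no genetic change, in 5 conditions of 3 replicas each. All animals had spent the night in darkness. Retinas were then taken in darkness at 7 am (0 ZT dark), 10 am (3 ZT dark) or 1 pm (6 ZT dark), or after 3 hours (3 ZT light) or 6 hours (6 ZT light) of light at 1000 lux, ending at the same clock hours. The 6 ZT light samples have titles that give 6 hours of light, as do the methods of the study, but their treatment labels give 3, and the titles were used. The labels do not say whether a replica was 1 animal or a pool, so p-values cover only the spread among these arrays.

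The retina is known for turning most of its glucose into lactate even when oxygen is present, and photoreceptors carry much of this aerobic glycolysis. Glucose enters through Slc2a1, is phosphorylated by a hexokinase, passes the control step of phosphofructokinase and ends as pyruvate, which lactate dehydrogenase turns into lactate. Pyruvate dehydrogenase kinases switch off pyruvate dehydrogenase, the mitochondrial enzyme that turns pyruvate into acetyl-CoA. Photoreceptors use more energy in darkness than in light.

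Rod genes were among the brightest on the arrays, with Sag, the rod arrestin, at 15.39 on average on the log2 scale. Of the 5 markers of Müller glia, Glul, Rlbp1, Slc1a3 and Aqp4 lay between percentiles 87.7 and 99.5, and Kcnj10 at 7.02. Lens genes were measured in every array. The mean of 9 lens genes per array ran from 12.38 to 13.00 in 6 ZT dark and from 9.07 to 12.16 in 6 ZT light, without overlap. The 3′ minus 5′ difference of the Actb control probe sets, a sign of RNA integrity, was 2.10 in replica 1 of 0 ZT dark and 2.40 in replica 2 of 3 ZT light, against 0.708 to 1.37 in the other 13 arrays. These 2 arrays stand apart by Actb. Their Gapdh differences were also the largest, at 0.261 and 0.362, against 0.005 to 0.134 in the others. The same difference of the Hk1 control probe sets was 2.03 and 1.16 in them, against 1.56 to 2.74 in the others. By Hk1, the first thus lay within the range of the others and the second below it. In whole retina, fewer cells of a type and less RNA per cell cannot be told apart.

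The 10 genes spanned most of the array's range. The brightest Ldha probe set averaged 14.98, higher than 99.9% of all probe sets. Ldhb, Pgk1 and Slc16a1 each had a probe set above percentile 98. The single probe sets of Slc2a1 and Hk2, and the brighter one of Hk1, lay between percentiles 90.0 and 94.3. Pfkl lay at percentile 86.1 and the brighter Pdk1 probe set at 77.4, while the brightest Pfkfb3 probe set was near the middle of the array, at 54.0. Since probe sets differ in their affinity, these percentiles do not order the genes by transcript abundance. Hk1, Pfkfb3, Slc16a1, Pdk1 and Pgk1 had more than one tested probe set, and the dimmest probe sets of Pgk1, Pfkfb3, Slc16a1 and Hk1 lay at percentiles 0.634, 9.09, 21.2 and 21.8.

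**Figure D1:**
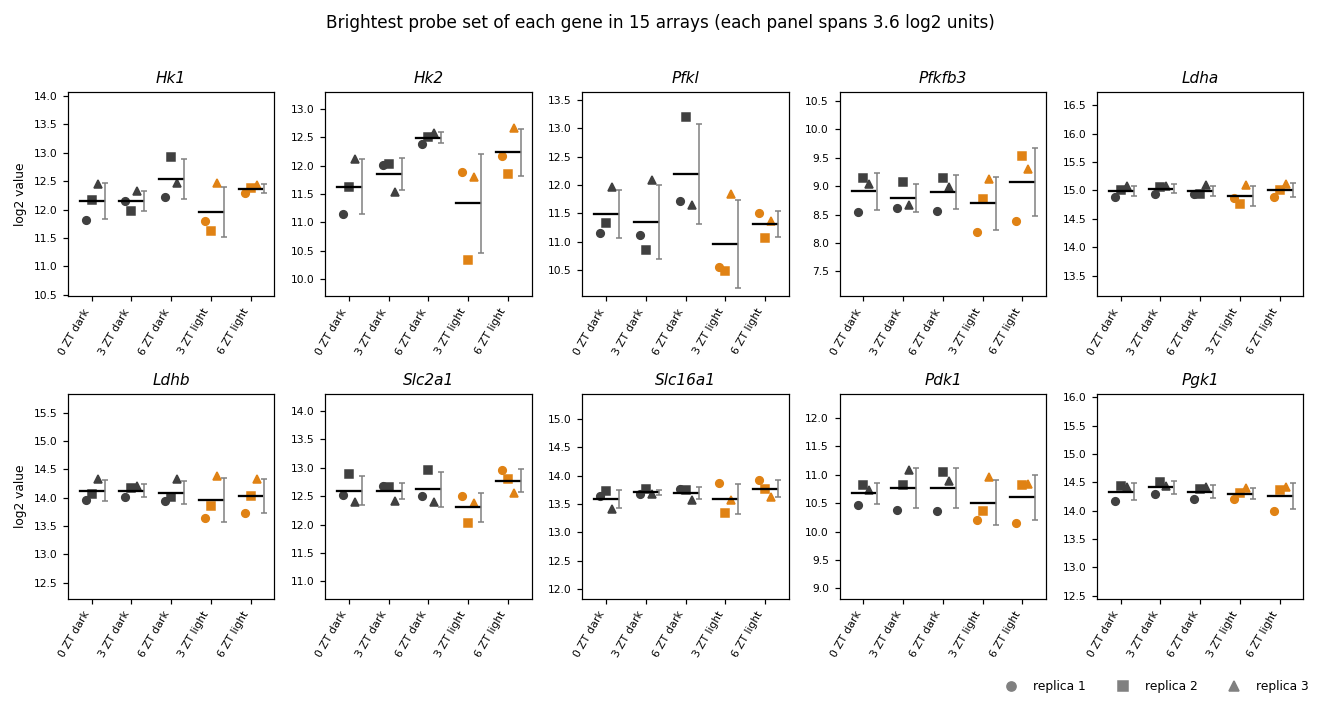
Log2 value of the brightest probe set of each of the 10 genes (vertical axis) in the 5 conditions (horizontal axis), dark conditions in grey and light conditions in orange. Symbols mark the replica number, the black bar is the mean and the grey bar the SD (n = 3). Hk2 and Pfkl spread over 2.34 and 2.73 log2 units across the 15 arrays, and Ldha over 0.370.

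No probe set of the 10 genes passed an adjusted p of 0.05 in any comparison of 2 conditions, nor in the test of whether the light effect differed between 6 and 3 ZT (limma, replica number as a block, Benjamini-Hochberg over 31042 probe sets). Few others did: 1 probe set (0.00322%) in 3 ZT light against 3 ZT dark, 1 (0.00322%) in 3 ZT light against 0 ZT dark, and 0 (0.0%) in each of the others. At an unadjusted p under 0.05, the counts over all probe sets were 1426 in 3 ZT light against 3 ZT dark, 2647 in 6 ZT light against 6 ZT dark, 389 and 2711 for 3 ZT dark and 6 ZT dark against 0 ZT dark, 2384 and 1918 for the same hours in light against 0 ZT dark, and 1847 for the difference of the light effects. The values below are therefore measured differences that the test did not call.

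The promoters of 3 of the genes are shown because, among the 17 tested probe sets, these genes held the largest mean difference between 6 ZT dark and 0 ZT dark (Hk2), the lowest mean ratio of 3 ZT light to 0 ZT dark (Pdk1) and the narrowest range over the 15 arrays (Ldha), as described after them. They were chosen after the values were seen. Each runs from 250 bases before to 50 bases after an annotated start (RefSeq, GRCr8, 5′ to 3′ on the gene's strand). Capitals mark ACGTG on either strand (CACGT when it lies on the other strand), the core letters of the hypoxia response element, including the E-box CACGTG, which contains it on both strands.
Hk2 (chr4:116841226-116841525, minus strand): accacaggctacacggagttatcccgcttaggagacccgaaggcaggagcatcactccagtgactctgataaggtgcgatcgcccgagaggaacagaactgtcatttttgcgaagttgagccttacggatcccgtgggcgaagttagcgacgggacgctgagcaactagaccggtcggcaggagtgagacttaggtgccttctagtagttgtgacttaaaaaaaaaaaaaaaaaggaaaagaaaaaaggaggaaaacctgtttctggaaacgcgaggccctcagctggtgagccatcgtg
Pdk1 (chr3:77113264-77113563, plus strand): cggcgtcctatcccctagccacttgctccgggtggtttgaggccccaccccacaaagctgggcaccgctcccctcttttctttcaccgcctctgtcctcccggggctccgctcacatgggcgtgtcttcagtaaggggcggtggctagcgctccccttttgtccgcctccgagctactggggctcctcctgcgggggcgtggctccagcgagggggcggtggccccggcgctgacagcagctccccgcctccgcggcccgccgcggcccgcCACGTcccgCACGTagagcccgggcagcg
Ldha (chr1:106507842-106508141, plus strand): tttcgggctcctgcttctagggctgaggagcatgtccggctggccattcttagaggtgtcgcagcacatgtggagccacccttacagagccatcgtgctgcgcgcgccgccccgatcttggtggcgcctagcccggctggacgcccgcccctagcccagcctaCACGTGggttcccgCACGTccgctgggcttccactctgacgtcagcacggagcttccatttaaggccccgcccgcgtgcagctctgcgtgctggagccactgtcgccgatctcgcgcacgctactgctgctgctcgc
The Ldha window holds CACGTG once and CACGT once more, the Pdk1 window holds CACGT at 2 places, and the Hk2 window holds no match. Of the 10 genes, 9 had a promoter entry, and 6 of these genes had ACGTG in an entry, against 19.3% of 33469 promoters of the same length. The 6 genes were Ldha, Slc16a1, Pdk1, Slc2a1, Pfkfb3 and Hk1, and in Hk1 it was in 1 of 2 entries. CACGTG was found in Ldha, Slc16a1 and Pfkfb3, against 6.42% of all promoters. The nuclear receptor motif AGGTCA, searched on both strands, was found in Ldhb, against 16.2%. The windows were 50.7 to 72.7% G and C. A match describes letters and not a site of binding.

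Hexokinases, which trap glucose in the cell, gave their highest mean readings at 6 ZT in darkness. Hk2, the inducible form that photoreceptors are known to use, whose promoter window held no ACGTG, read 11.14, 11.62 and 12.11 in replicas 1 to 3 of 0 ZT dark, 12.01, 12.02 and 11.54 in 3 ZT dark, and 12.38, 12.51 and 12.57 in 6 ZT dark. In light it read 11.88, 10.33 and 11.80 at 3 ZT and 12.18, 11.85 and 12.67 at 6 ZT. Each 6 ZT dark array lay above each 0 ZT dark array, while the lowest of all 15 values was replica 2 of 3 ZT light, one of the arrays that stand apart. The ratio of 6 ZT dark to 0 ZT dark was 1.86 ± 0.491 (SD, n = 3) and the log2 difference 0.86 (SE 0.356, limma adjusted p = 0.548). Without replica 1 of 0 ZT dark the difference was 0.55. In 6 ZT light the ratio to 0 ZT dark was 1.56 ± 0.448 (SD, n = 3), above 1 in all 3 replicas, with a log2 difference of 0.61 (limma adjusted p = 0.868), and 0.30 without replica 1 of 0 ZT dark. Among the 17 probe sets, Hk2 was the only one with non-overlapping groups upward in 6 ZT dark against 0 ZT dark, as for 0.673% of all probe sets.

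Hk1, the constitutive hexokinase of nervous tissue, leaned the same way. Its bright probe set read 11.82, 12.18 and 12.44 in 0 ZT dark and 12.23, 12.93 and 12.47 in 6 ZT dark. The groups overlapped, and the ratio was 1.35 ± 0.333 (SD, n = 3), with a log2 difference of 0.40 (SE 0.197, limma adjusted p = 0.599). Leaving out replica 2 of 6 ZT dark brought this difference to 0.15. Its dim probe set gave a ratio of 1.01 ± 0.0891 (SD, n = 3).

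The array carries 3 control probe sets along the hexokinase transcript that the annotation assigns to Hk1. They were fitted together with the other controls in an analysis added after the data were seen. The 5′ probe set read 6.04, 6.38 and 8.24 in 0 ZT dark and 7.19, 7.58 and 8.77 in 6 ZT dark, higher by ratios of 2.23, 2.29 and 1.44 within the replica numbers. Its log2 difference was 0.96 (SE 0.175, unadjusted p = 0.000227, limma adjusted p = 0.454). The middle probe set gave ratios of 1.74, 1.53 and 1.43 (limma adjusted p = 0.471). The 3′ probe set gave 2.34, 2.27 and 1.22 (limma adjusted p = 0.537). In 6 ZT light against 6 ZT dark, the 5′ probe set was lower in all 3 replicas, at a ratio of 0.779 ± 0.0288 (SD, n = 3), with a log2 difference of -0.36 (limma adjusted p = 0.594). All 3 controls were thus higher after 6 hours more of darkness in each replica, as were 15.5% of all tested probe sets, but none passed the test.

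Actb control probe sets moved with these readings. The 5′ Actb probe set gave ratios of 4.44, 1.49 and 1.20 in 6 ZT dark against 0 ZT dark, and its lowest array in 0 ZT dark was replica 1. Each of the 9 lens genes gave a higher mean at 6 than at 0 ZT in darkness (median log2 difference 1.14), with mean levels per array of 12.38 to 13.00 and 10.61 to 12.09. All 6 pigment epithelium genes were lower (median -0.39). In replicas 2 and 3 the Hk2 ratio was 1.85 and 1.38. The 5′ Actb ratio there was 1.49 and 1.20, and the mean lens log2 difference 0.91 and 0.67. In replica 1, which gave the highest Hk2 ratio, these were 4.44 and 1.98. The 3′ and middle Hk1 controls also gave their highest ratios in replica 1. The bright Hk1 probe set and the 5′ Hk1 control gave theirs in replica 2. The part of lens, pigment epithelium or RNA integrity in the hexokinase readings was not tested.

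**Figure D2:**
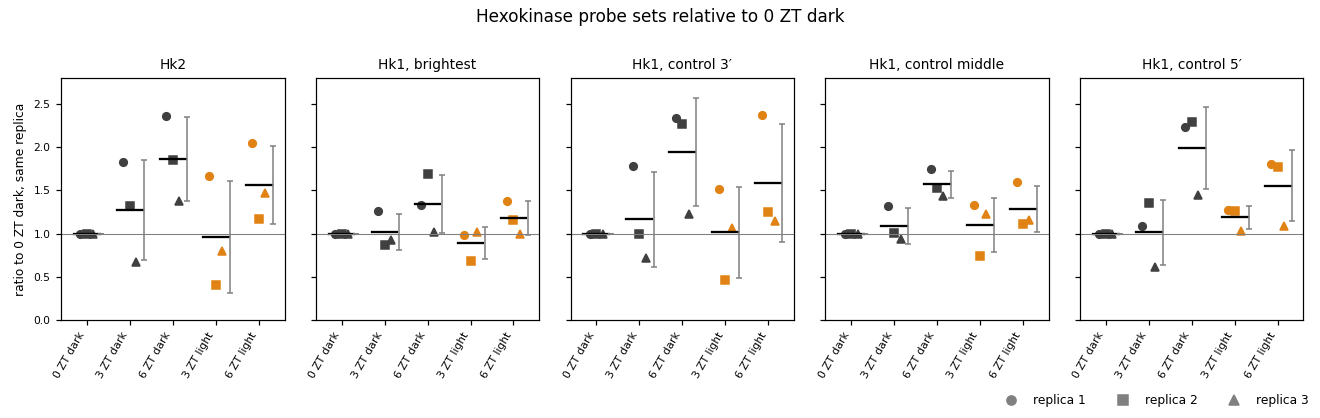
Ratio of each array to the 0 ZT dark array of the same replica number (vertical axis, linear from 0) for Hk2, the brightest Hk1 probe set and the 3 Hk1 control probe sets, in the 5 conditions (horizontal axis). Symbols mark the replica number, black bars the mean and grey bars the SD (n = 3); all replicas of 6 ZT dark lie above 1 in each panel, from 1.02 to 2.36.

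Pfkl, the liver-type subunit of phosphofructokinase, the main control step of glycolysis, was set apart by 1 array. It read 11.72, 13.20 and 11.64 in 6 ZT dark and 11.50, 11.06 and 11.37 in 6 ZT light, and the 2 groups did not overlap, as for 1.19% of all probe sets in this direction. In the earlier conditions it read 11.16, 11.33 and 11.97 in 0 ZT dark, 11.12, 10.85 and 12.09 in 3 ZT dark, and after light at 3 ZT 10.55, 10.48 and 11.85. Replica 2 of 6 ZT dark was the highest of all 15 values by more than 1 log2 unit. The ratio of 6 ZT light to 6 ZT dark was 0.856, 0.226 and 0.826 in replicas 1 to 3, and the log2 difference -0.88 (SE 0.452, limma adjusted p = 0.605), which became -0.20 without that array. In 6 ZT dark against 0 ZT dark the log2 difference was 0.70, and 0.02 without the same array. At 3 ZT, Pfkl was lower in light than in darkness in all 3 replicas, at a ratio of 0.763 ± 0.0844 (SD, n = 3) and a log2 difference of -0.40 (SE 0.452, limma adjusted p = 0.910). This difference was -0.14 without replica 2 of 3 ZT light, -0.14 without replica 3 of 3 ZT dark, -0.66 without replica 2 of 3 ZT dark and -0.75 without replica 3 of 3 ZT light.

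Pfkfb3, which makes the sugar bisphosphate that activates phosphofructokinase, had 3 probe sets that did not share a direction. The brightest read 8.56, 9.14 and 8.98 in 6 ZT dark and 8.39, 9.53 and 9.31 in 6 ZT light, so that the groups overlapped. Its log2 difference there was 0.18 (SE 0.163, limma adjusted p = 0.740), and 0.06 without replica 2 or 0.35 without replica 1 of 6 ZT light. The other 2 probe sets gave -0.13 and -0.04 in the same comparison. At 3 ZT the 3 differences between light and darkness ran from -0.11 to 0.10.

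Ldha spanned 0.370 log2 units over the 15 arrays, the narrowest range of the 17 tested probe sets, and Ldhb spanned 0.739. Ldha, the subunit that favours the making of lactate, read between 14.75 and 15.12 in all 15 arrays. Its lowest array was replica 2 of 3 ZT light, and the log2 difference between light and darkness was -0.125 (SE 0.0703, limma adjusted p = 0.895) at 3 ZT, with a 95% interval of -0.281 to 0.0306. Without that array it was -0.05. At 6 ZT the ratio of light to darkness was 1.01 ± 0.0401 (SD, n = 3), with an interval of -0.135 to 0.176 for the log2 difference. Ldhb, the subunit that favours the use of lactate, read between 13.65 and 14.39. Its log2 difference at 3 ZT was -0.16 (SE 0.0986, limma adjusted p = 0.895), lower in replicas 1 and 2 and higher in replica 3, and from -0.27 to -0.10 with an array left out. At 6 ZT its ratio of light to darkness was 0.964 ± 0.0825 (SD, n = 3).

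Pgk1, which makes ATP from a glycolytic intermediate, read between 13.99 and 14.51 with its brightest probe set and between 13.78 and 14.35 with its second one. The log2 differences between light and darkness at 3 ZT were -0.11 and -0.20 (limma adjusted p = 0.895 for each), and -0.07 and -0.08 without replica 2 of 3 ZT light. The first was lower in all 3 replicas. The second showed exactly the same value in light and darkness in replica 3. Such equal values within a replica number were frequent in the deposited table, and over all probe sets they made up 3.58 to 14.1% of values between arrays of the same number, against 0.0161 to 0.0900% between arrays of different numbers. The third Pgk1 probe set stayed between 4.05 and 4.53, near the floor of the array, and had only 2 distinct values among the 5 arrays of replica 3.

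Neither carrier passed the test. Slc2a1, the glucose carrier of photoreceptors, glia and the blood-retina barrier, read 12.69, 12.66 and 12.42 in 3 ZT dark and 12.51, 12.02 and 12.37 in 3 ZT light. It was lower in light in all 3 replicas, mostly in replica 2, and the groups overlapped. The log2 difference was -0.29 (SE 0.167, limma adjusted p = 0.895), and -0.06 without replica 2 of 3 ZT light. At 6 ZT it read 12.50, 12.96 and 12.40 in darkness and 12.96, 12.80 and 12.56 in light, a difference of 0.15 (limma adjusted p = 0.793), which ran from 0.04 to 0.31 with an array left out. The light effect at 6 ZT minus that at 3 ZT was 0.44 (SE 0.235, unadjusted p = 0.0904, limma adjusted p = 0.776), and 0.21 without replica 2 of 3 ZT light.

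Slc16a1, a carrier that moves lactate and pyruvate across the cell membrane, read between 13.34 and 13.92 with its bright probe set. In 6 ZT light against 6 ZT dark this probe set was higher in all 3 replicas, at a ratio of 1.06 ± 0.0534 (SD, n = 3), and the log2 difference was 0.08 (SE 0.114, limma adjusted p = 0.848). It was the only 1 of the 17 probe sets with this pattern, which 17.2% of all probe sets showed. The dim Slc16a1 probe set, between 6.13 and 7.15, was lower in all 3 replicas of the same comparison, at 0.899 ± 0.0244 (SD, n = 3). At 3 ZT the log2 difference of the bright probe set was -0.11 (limma adjusted p = 0.903), which turned to 0.04 without replica 2 of 3 ZT light.

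Pdk1 was the only gene of the 10 to pass the ratio rule of the study, a ratio below 0.7 or above 1.6 in all 3 replicas. The kinase it encodes inhibits pyruvate dehydrogenase. The dimmer of its 2 probe sets read 9.67, 9.85 and 10.18 in 0 ZT dark and 9.06, 9.33 and 9.66 in 3 ZT light, without overlap, as for 1.21% of all probe sets. The ratios in replicas 1 to 3 were 0.653, 0.696 and 0.697, just inside the limit, and 0.0741% of all probe sets passed the rule downward in this comparison. No other probe set of the 10 genes passed it in any of the 6 comparisons of 2 conditions, where 0.0 to 0.287% of all probe sets passed in a given direction. The log2 difference was -0.55 (SE 0.150, unadjusted p = 0.00381, limma adjusted p = 0.500), and it lay between -0.67 and -0.46 when each array was left out in turn. In 3 ZT light against 3 ZT dark, which read 9.38, 9.86 and 9.96, the ratio was 0.768 ± 0.0683 (SD, n = 3), lower in all 3 replicas, and the log2 difference was -0.38 (SE 0.150, limma adjusted p = 0.895).

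At 6 ZT the same probe set was below its 0 ZT dark reading in both conditions. It read 9.61, 9.61 and 9.44 in 6 ZT dark, all below 0 ZT dark, and 9.32, 9.77 and 9.48 in 6 ZT light, where the groups overlapped. Downward groups without overlap were seen for 3.69% of all probe sets in 6 ZT dark against 0 ZT dark. The log2 differences from 0 ZT dark were -0.35 (SE 0.150, limma adjusted p = 0.557) in darkness, or -0.20 without replica 3 of 6 ZT dark, and -0.38 (SE 0.150, limma adjusted p = 0.77) in light. Between light and darkness at 6 ZT the ratio was 0.988 ± 0.155 (SD, n = 3).

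The brighter Pdk1 probe set only partly followed. In 3 ZT dark it read 10.39, 10.83 and 11.08, and in 3 ZT light 10.21, 10.37 and 10.96, lower in all 3 replicas with a log2 difference of -0.26 (SE 0.135, limma adjusted p = 0.895), which was -0.09 without replica 2 and -0.39 without replica 3 of 3 ZT light. Against 0 ZT dark, which read 10.47, 10.83 and 10.73, the ratio in 3 ZT light was 0.912 ± 0.237 (SD, n = 3). In replica 3 it was above 1, at 1.18, where the other probe set gave 0.697. In 6 ZT dark against 0 ZT dark the 2 probe sets had opposite signs, 0.09 for the brighter and -0.35 for the dimmer.

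**Figure D3:**
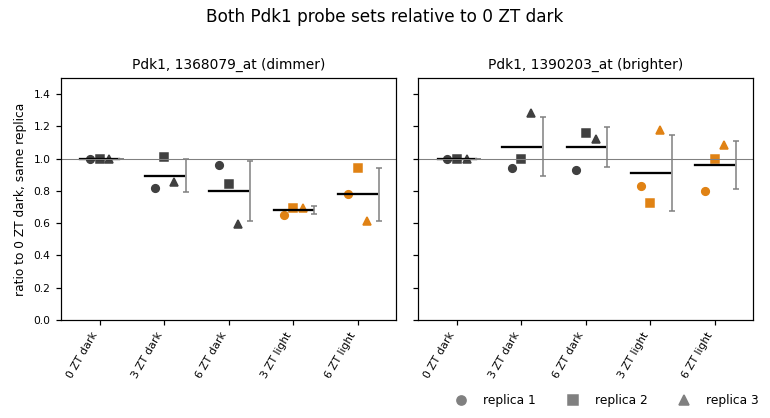
Ratio of each array to the 0 ZT dark array of the same replica number (vertical axis, linear from 0) for both Pdk1 probe sets in the 5 conditions (horizontal axis), with replica symbols, the mean (black bar) and the SD (grey bar, n = 3). In 3 ZT light, the dimmer probe set lies at 0.653 to 0.697 in every replica, and the brighter at 0.725 to 1.18.

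Set against each other, 3 ZT light and 3 ZT dark gave lower light readings for 16 of the 17 probe sets and for the brightest probe set of all 10 genes. The median log2 difference was -0.125, against 0.0003 over all 31042 probe sets, of which 15570 were higher. With the dim probe sets left out, it was -0.193 over the 13 kept of the 17. Over all kept it was -0.0163, with 46.2% higher. Of the 17, 6 were lower in all 3 replicas, as were 9.43% of all probe sets, and they belonged to Pdk1 (both), Pfkl, Slc2a1, Pgk1 and Pfkfb3. The largest differences of the 17 were those of Hk2 (-0.52, SE 0.356), Pfkl and Pdk1. The Hk2 ratios were 0.913, 0.309 and 1.20 in replicas 1 to 3, so that replica 2 alone carried the difference, which was -0.04 without that light array.

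Replica 3 did not show a lower median. The median of the 17 probe sets was -0.15 in replica 1, -0.32 in replica 2 and 0.00 in replica 3. Replica 2 of 3 ZT light is the array with the largest Actb difference, and its 5′ Actb ratio to 3 ZT dark was 0.142. Without it the median over the 17 was -0.05 and 12 of 17 were lower, and without both arrays that stand apart it was -0.06 with 13 of 17 lower. Several cell type markers moved in the same comparison. Light readings were lower for 5 of 5 cone genes (median -0.19), 4 of 5 Müller glia genes (-0.12) and 4 of 5 microglia genes (-0.50). They were also lower for 2 of 2 blood genes (-0.40) and 3 of 4 vessel genes (-0.07), and higher for 8 of 9 lens genes (0.47). Rod genes were split, with 2 higher and 2 lower (-0.02), as were pigment epithelium genes, with 3 and 3 (0.17). The microglia mean differed by -0.07, -0.95 and -0.05 in replicas 1 to 3. The part of RNA integrity or of other cell types in these readings was not tested.

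At 6 ZT, light readings were lower than dark ones for 13 of the 17 probe sets, with a median log2 difference of -0.08, against -0.00668 over all probe sets. Of the 17, 4 were lower in all 3 replicas, as were 13.5% of all probe sets. They were Pfkl, the brighter Pdk1 probe set (-0.16, SE 0.135, limma adjusted p = 0.725), a Pfkfb3 probe set and the dim Slc16a1 probe set. Without replica 2 of 6 ZT dark this Pdk1 difference was -0.06. Hk2 and the bright Hk1 probe set gave -0.26 and -0.18, were both lower in 2 of 3 replicas, and gave -0.09 and 0.08 without replica 2 of 6 ZT dark. Light readings in this comparison were lower for 9 of 9 lens genes (median -1.56), 5 of 5 microglia genes (-0.09) and 3 of 4 vessel genes (-0.12). They were higher for 6 of 6 pigment epithelium genes (0.62), 5 of 5 Müller glia genes (0.08) and 4 of 4 rod genes (0.07). Higher readings were also given by 4 of 5 cone genes (0.16) and 2 of 2 blood genes (0.62). The part of these cell types in the readings was not tested. The light effect at 6 ZT minus that at 3 ZT had a median of 0.09 over the 17 probe sets and -0.00633 over all. With the dim probe sets left out, it was 0.108 over the 13 kept of the 17. Over all kept it was 0.0597, with 60.9% higher. The median light effect at 6 ZT was then -0.0783 over the 13 and 0.0383 over all kept. The medians over all thus depended on brightness. The median of 0.09 over the 17 turned to -0.0097 without replica 2 of 3 ZT light and -0.0095 without both arrays that stand apart. With cyclic loess normalization it was -0.0027.

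**Figure D4:**
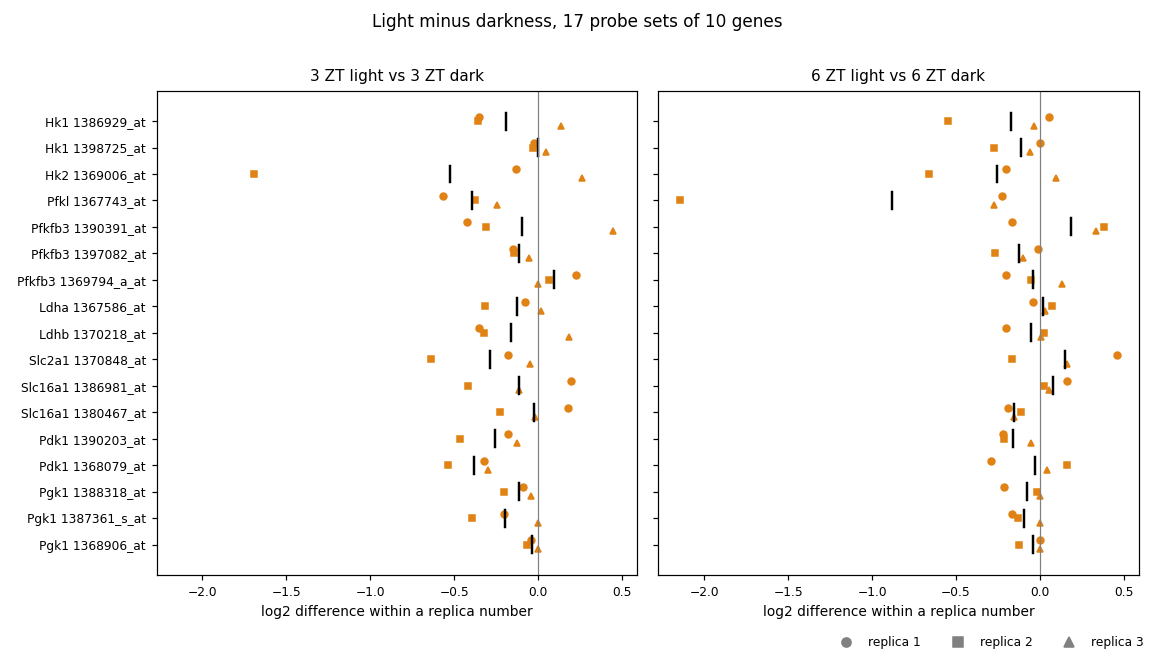
Log2 difference between light and darkness within each replica number (horizontal axis, log2 units) for the 17 tested probe sets (vertical axis), at 3 ZT on the left and at 6 ZT on the right. Symbols mark the replica number and the black bar is the mean; the farthest points are Hk2 at 3 ZT (-1.69) and Pfkl at 6 ZT (-2.14), both in replica 2.

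Relative to 0 ZT dark, the 17 probe sets showed no shared direction in darkness. The median log2 difference was 0.00567 in 3 ZT dark and 0.0094 in 6 ZT dark, with 10 of 17 higher in each. Over all probe sets the medians were 0.00477 and 0.00792, with 52.2% and 52.4% higher. Among the 17, the largest differences upward in 6 ZT dark were those of Hk2, Pfkl and Hk1. In light the medians were -0.16 at 3 ZT, with 13 of 17 lower, and -0.08 at 6 ZT, with 10 of 17 lower. Over all probe sets the medians in light were 0.00363 at 3 ZT, with 51.2% higher, and -0.007 at 6 ZT, with 47.6% higher. With the dim probe sets left out, the medians over all kept were -0.0346 at 3 ZT and 0.00797 at 6 ZT. Those of the 13 kept of the 17 were -0.179 and -0.0697. Without replica 2 of 3 ZT light the 3 ZT median of the 17 was -0.0131 with 11 of 17 lower. Without both arrays that stand apart it was -0.0503. Since all 4 comparisons share the 0 ZT dark arrays, their likeness is not a result.

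Genes around the 10 were taken from 4 lists, and no probe set of any list passed the test in any comparison. Over all probe sets tested, 50.2% were higher in light at 3 ZT and 48.0% at 6 ZT. With the dim probe sets left out, these shares were 46.2% and 59.7%. The counts of these lists were not taken without replica 2 of 3 ZT light. Of 27 probe sets of 18 other glycolytic enzymes, 19 gave lower readings with light at 3 ZT (median -0.16) and 21 at 6 ZT (median -0.08). Tpi1, triosephosphate isomerase, gave -0.35 at 3 ZT (SE 0.141, limma adjusted p = 0.895), with ratios of 0.837, 0.571 and 1.01, and -0.13 without replica 2 of 3 ZT light. Pfkfb2, a relative of Pfkfb3, gave the lowest p upward at 3 ZT (0.18, SE 0.109), which was 0.32 without that array. The brighter probe set of Pfkfb4, another relative, was higher with light at 6 ZT in all 3 replicas. Its ratio was 1.27 ± 0.0772 (SD, n = 3) and its log2 difference 0.35 (SE 0.127, limma adjusted p = 0.542). The dimmer probe set of Ldhd, which oxidises D-lactate, was lower in all 3 replicas at 0.850 ± 0.0836 (SD, n = 3), with -0.24. The other probe set of each of these genes is not reported here. Without replica 2 of 6 ZT light Pfkfb4 gave 0.21, and without replica 2 of 6 ZT dark Ldhd gave -0.13.

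A further Pfkfb2 reading was chosen after the values were seen. One of its 4 probe sets was 1.38 ± 0.0702 times (SD, n = 3) its 0 ZT dark value in 6 ZT dark and 1.37 ± 0.147 times in 6 ZT light. The log2 differences were 0.47 (SE 0.109, limma adjusted p = 0.457) and 0.44 (SE 0.109, limma adjusted p = 0.408). The brightest Pfkfb2 probe set gave -0.28 and -0.04 in these comparisons, so the probe sets of this gene disagreed.

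Of 12 probe sets of 10 other glucose and lactate carriers and their partners, 8 were lower in light at 3 ZT (median -0.02) and 7 at 6 ZT (median -0.03). Of 16 probe sets of 11 genes of pyruvate dehydrogenase and its control, 11 were lower at 3 ZT (median -0.06) and 9 at 6 ZT (median -0.02). Pdk4, a kinase of the same enzyme as Pdk1, had a dim probe set that was higher in light in all 3 replicas at both hours, at 1.11 ± 0.0233 (SD, n = 3) at 3 ZT and 1.17 ± 0.126 (SD, n = 3) at 6 ZT. Its log2 differences were 0.15, or 0.07 without replica 1 of 3 ZT dark, and 0.22, or 0.14 without replica 1 of 6 ZT light, and its other probe set gave -0.06 and -0.13. Pdk2, another such kinase, was lower with light at 6 ZT in all 3 replicas with its dimmer probe set, at 0.778 ± 0.209 (SD, n = 3), with a log2 difference of -0.40 (limma adjusted p = 0.643), and -0.21 without replica 2 of 6 ZT dark.

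The last list held 13 probe sets of 10 genes. They were targets of the hypoxia factor HIF1 outside glycolysis, and Hif1a, which encodes a subunit of HIF1. Of these probe sets, 9 were lower in light at 3 ZT (median -0.18) and 5 at 6 ZT (median 0.003). Ankrd37, an ankyrin repeat gene, gave the largest difference at 3 ZT, -0.59 (SE 0.209, limma adjusted p = 0.895). Its ratios were 0.780, 0.382 and 0.985, with the lowest again in replica 2, and the difference was -0.28 without that light array.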

How the data were processed

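Transcripts of 15 retinal samples were measured on the Affymetrix Rat Genome array. According to the methods, the authors computed the deposited log2 values by Robust Multi-array Average, in which background correction and quantile normalization precede the summary of the probes. The software version is not given in the sources used here. Median log2 values were 8.28 to 8.32 in arrays of replica 1, 8.58 to 8.68 in replica 2 and 8.75 to 8.81 in replica 3, so the arrays do not share 1 distribution. Precision is limited by the number of arrays. Symbols came from the platform annotation, in which 20832 probe sets carry exactly 1.

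A linear model with a term for the condition and one for the replica number was fitted in limma (version 3.58.1, R version 4.3.3) to all 15 arrays and 31042 probe sets, with 57 controls left out, two-sided p-values, a Benjamini-Hochberg adjustment and a threshold of 0.05. Replica numbers come from the sample titles. Arrays of the same number deviated together in all 30 pairs (r from 0.241 to 0.797, against -0.536 to 0.233 for other pairs), so the number was kept as a block; whether the tissue itself was paired was not tested. Correlations between arrays ran from 0.961 to 0.996, so none was a copy of another. Ratios were taken within a replica number, and the ratio rule (above 1.6 or below 0.7 in all 3 replicas) follows the methods of the study.

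The members and the lists were chosen with earlier results of these data known. Every probe set of the 10 genes is covered. Of the wider lists, probe sets past the threshold and the 2 with the lowest p per direction in each comparison of light with darkness are named, and other genes are said to be chosen after their values were seen. Some genes of the wider lists are not reported here.

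Data were simulated for 6 ZT light against 6 ZT dark with 31042 probe sets. Of 100 probe sets shifted by 1 log2 unit, 84 were recovered, as were 99 of 100 shifted by 2. There were 17 false among 200 calls. The measured comparison called 0 probe sets, so a call there needed a lower unadjusted p than in the simulation. The recovered shares are therefore not the chance of a call for the genes followed here. In the measured comparison the SE was 0.356 for Hk2 and 0.452 for Pfkl. Alternatives were no replicate block, quantile and cyclic loess normalization, the dimmest 40% of probe sets left out, array quality weights (statmod 1.5.0), only the conditions compared, both arrays of largest Actb difference left out, each array left out, ratio limits of 1.5 and 0.67 or 1.3 and 0.77, and the brightest probe set of each gene. Keeping the control probe sets in the test was added after seeing the data. Figures were drawn with matplotlib 3.10.9.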

Additional observations from a re-analysis of the deposited data

How the results depend on the processing

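No probe set of the 10 genes passed the test in any comparison under any alternative, although array quality weights called 2311 probe sets in 6 ZT light against 6 ZT dark and 676 in 6 ZT light against 0 ZT dark, where limma without weights called 0. For 46 selected single differences, 1046 of 1056 values under alternatives kept their sign. Other differences of the 10 genes were not in this count, and some of them reversed. This count is no measure of robustness, since many alternatives cannot change a difference in this design. Examples are no replicate block and leaving out an array of a condition that is not compared.

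Without the replicate block, the ratio rule was passed by 1 probe set in 6 ZT light against 6 ZT dark (Pfkl), 1 in 6 ZT dark against 0 ZT dark (Hk2) and 0 in 3 ZT light against 0 ZT dark. With limits of 1.3 and 0.77, Hk2 was the 1 to pass in 6 ZT dark against 0 ZT dark, and with 1.5 and 0.67 Pdk1 no longer passed in 3 ZT light against 0 ZT dark (0). Leaving out a replica number gave 0 to 1 and 1 to 2 in these 2 comparisons.

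Medians over the 17 probe sets moved as follows. In 3 ZT dark against 0 ZT dark the median was -0.0176 with cyclic loess and -0.0221 to 0.0639 with an array left out. In 6 ZT dark against 0 ZT dark it was 0.0315 with quantile normalization, 0.0293 with cyclic loess, 0.0555 with the brightest probe sets and -0.0114 to 0.0322 with an array left out. In 3 ZT light against 0 ZT dark it ran from -0.251 to -0.0131 with an array left out and was -0.0468 with array weights. In 6 ZT light against 0 ZT dark it was -0.0267 with array weights, 0.0914 with the brightest probe sets and -0.0785 to -0.0135 with an array left out.

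Among the 46 selected differences, signs reversed in few cases, and the cause was not tested. In 3 ZT light against 3 ZT dark, without both arrays of largest Actb difference, the bright probe set of Hk1 gave 0.0014 and that of Slc16a1 gave 0.0425. Slc16a1 gave 0.0052 with array weights. With an array left out these ran from -0.3855 to 0.0101 and from -0.2211 to 0.0449. In 6 ZT light against 6 ZT dark, Hk2 gave 0.0390 with array weights, and Hk1 ran from -0.3410 to 0.0758 with an array left out. The brighter Pdk1 probe set ran from -0.0253 to 0.1832 in 6 ZT dark against 0 ZT dark with an array left out, and gave 0.1257 in 3 ZT light against 0 ZT dark without both arrays. Differences outside the 46 also changed sign over the alternatives. Hk2 ran from -0.6244 to 0.1886 in 3 ZT light against 0 ZT dark. The brightest Pfkfb3 probe set ran from -0.2646 to 0.0560 in 3 ZT light against 3 ZT dark. The dimmer Pdk1 probe set ran from -0.1842 to 0.1353 in 6 ZT light against 6 ZT dark. Pfkl ran from -0.3912 to 0.1332 in 3 ZT dark against 0 ZT dark. For the third Pgk1 probe set, near the floor of the array (4.05 to 4.53), a change was not detectable at this signal.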
